A study of Mus musculus with 8 samples.

Results

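A set of 10 genes that build the PI3K, AKT and mTOR signalling route was followed in cultured mouse lung group 2 innate lymphoid cells (ILC2s), the lymphocytes that make type 2 cytokines without an antigen receptor. They are Mtor, Rptor, Rictor, Mlst8, Akt1, Akt2, Rps6kb1, Rheb, Tsc1 and Tsc2, taken by gene symbol, and all 10 were listed among the 23183 genes of the count tables. The data are poly(A) mRNA-seq counts from 8 libraries, 4 from cells exposed for 3 h to 5 µM Yoda1, a chemical agonist of the mechanosensitive calcium channel Piezo1, and 4 from cells given 0.1% DMSO, the vehicle. All cells came from lungs of C57BL/6 mice aged 6 to 10 weeks that had received IL-33, and both groups were grown with IL-2, IL-7 and IL-33 at 10 ng/mL each. The sources used here do not say whether the 4 libraries of a group came from separate mice or cultures, so the p-values measure only the spread between these libraries, which may be technical.

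In this route a receptor recruits PI3K, which makes a membrane lipid that brings the kinase AKT to the membrane. AKT inhibits the TSC complex, built on Tsc1 and Tsc2, which otherwise switches off the small GTPase Rheb. Active Rheb turns on mTORC1, the mTOR kinase with Raptor (Rptor), and mTORC1 then phosphorylates S6 kinase (Rps6kb1) and the repressors of the cap-binding factor to promote translation. The second complex, mTORC2, holds Rictor in place of Raptor and phosphorylates AKT, and Mlst8 is a subunit of both. Signalling along the route runs mostly through phosphorylation, which mRNA counts do not measure; the comparison here asks only whether the transcripts of the components differed after Yoda1.

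No member passed the threshold. The groups were compared with the quasi-likelihood test of edgeR, and p-values were adjusted over 12239 genes by the method of Benjamini and Hochberg (written as edgeR BH-adjusted p). Of the 10 members, 0 had an edgeR BH-adjusted p under 0.05, against 10.9% of all genes tested (6.04% higher and 4.84% lower). At an unadjusted p under 0.05 there were 3 members, Tsc1, Rps6kb1 and Mlst8, all with higher means in Yoda1, against 25.3% of all genes tested, and 0 members passed with DESeq2 or limma-voom. The log2 fold changes of the members ran from -0.045 to 0.18 with a median of 0.058, and 8 of 10 lay above 0 (7 of 10 with upper-quartile factors, where Rptor moved below 0). Over all genes tested, 5925 of 12239 lay above 0 and the median was -0.0053. The median absolute log2 fold change was 0.085 over all genes, against 0.058 for the members. All 4 Yoda1 libraries lay on one side of all 4 DMSO libraries for 1 of the 10 members, Tsc1, and for 15.5% of all genes.

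Library totals ran from 12438009 to 19534653 counts, and the member with the fewest counts, Mlst8, had 235 to 391 per library, so every member passed the filter on low counts. Values are CPM, that is counts relative to the library total after TMM scaling. Of 12 ILC2 markers, all were detected, with a summed level of 14431 to 14901 CPM in DMSO and 16347 to 16695 in Yoda1. Most of this sum was the cytokines Il13 (mean 5431 CPM in DMSO and 6667 in Yoda1) and Il5 (3337 and 3672). Gata3 was at 565 CPM in both groups and Icos at 249 and 219. Of the 12, 6 passed the threshold as higher and 1 as lower, against 6.04% and 4.84% of all genes tested. The summed T cell, B cell, macrophage or monocyte, mast cell or basophil, ILC3 and lung epithelial markers were between 1.16 and 84.8 CPM in every library, with Sftpc and Scgb1a1 at 0 counts in all 8. Markers shared with NK cells or ILC1s summed to 755 to 834 CPM in DMSO and 803 to 867 in Yoda1, mostly Gzma and Prf1. Of these 5 markers, 2 passed the threshold as higher, against 6.04% of all genes tested. Eomes, also on that list, was at 37.8 and 43.8 CPM, and Ncr1 and Klrb1c were at 3.70 to 6.07 CPM. The fibroblast or endothelial list summed to 212 to 226 CPM, nearly all of it Pecam1. The part of these markers in the results was not tested, and in bulk libraries fewer cells of a type and less RNA per cell cannot be told apart.

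The promoter windows of Mtor, the kinase itself, and of Tsc1 and Tsc2 are given here with that of Pik3r5, a PI3K subunit that fell. Tsc1 and Tsc2 are shown because their ratio, a measure added after the data had been seen, separated the groups. It did not pass after adjustment over 8 pairs (two-sided exact permutation test, adjusted p = 0.229). Each window is the 250 bases before the RefSeq start in build GRCm38.p6, on the strand of the gene. It is in lower case with matches to 4 searched motifs in capitals.
Mtor (chr4:148448332-148448581, plus strand): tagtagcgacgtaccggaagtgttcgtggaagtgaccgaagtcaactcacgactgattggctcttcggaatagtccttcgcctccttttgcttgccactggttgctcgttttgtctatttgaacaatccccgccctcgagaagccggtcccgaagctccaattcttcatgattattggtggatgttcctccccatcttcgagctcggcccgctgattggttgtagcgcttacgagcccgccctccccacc
Tsc1 (chr2:28640983-28641232, plus strand): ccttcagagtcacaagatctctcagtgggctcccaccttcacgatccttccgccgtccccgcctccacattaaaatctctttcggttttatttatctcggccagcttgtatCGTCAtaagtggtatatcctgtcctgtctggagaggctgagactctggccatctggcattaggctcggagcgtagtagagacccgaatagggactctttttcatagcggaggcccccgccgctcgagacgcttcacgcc
Tsc2 (chr17:24632628-24632877, minus strand): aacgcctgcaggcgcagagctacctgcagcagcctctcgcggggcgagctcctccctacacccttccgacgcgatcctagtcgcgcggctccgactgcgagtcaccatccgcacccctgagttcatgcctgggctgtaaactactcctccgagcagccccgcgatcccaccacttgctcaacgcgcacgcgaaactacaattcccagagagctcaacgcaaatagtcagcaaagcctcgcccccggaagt
Pik3r5 (chr11:68431875-68432124, plus strand): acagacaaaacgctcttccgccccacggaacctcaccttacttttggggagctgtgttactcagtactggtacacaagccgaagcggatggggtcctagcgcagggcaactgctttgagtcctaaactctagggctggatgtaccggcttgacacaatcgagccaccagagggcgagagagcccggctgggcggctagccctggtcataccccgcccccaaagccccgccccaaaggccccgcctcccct
The motifs, searched on both strands, were the cAMP response element TGACGTCA, its core TGACG (which lies inside the former), the NFAT core GGAAA and the E-box CACGTG. The capitals in the Tsc1 window are the core TGACG read on the opposite strand, and the windows of Mtor, Tsc2 and Pik3r5 held none of the 4. All 10 members had a window. The NFAT core was in 6 of the 10 and in 55.6% of the 32851 windows of the whole RefSeq table, and the core TGACG was in 4 of the 10 and in 17.8% of all. The whole cAMP response element was in 0 of the 10 and in 1.55% of all, and the E-box was in 1, that of Rheb, and in 6.02% of all. Member windows held 9 to 40 CpG dinucleotides with a median of 18, against a median of 6 over all windows. TGACG, TGACGTCA and CACGTG each hold a CpG, and the motif shares were not corrected for CpG content. A match is a description of letters in a window and not a binding site.

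Mtor, the kinase at the centre of both complexes, lies on chromosome 4 from 148448611 to 148557683 on the plus strand, and its principal transcript has 58 exons (GENCODE M21, build GRCm38, as for all positions below). It was at 78.7, 84.2, 94.3 and 91.1 CPM in the 4 DMSO libraries and at 84.6, 92.1, 91.2 and 91.4 CPM in the 4 Yoda1 libraries. The Yoda1 values lay within the range of the DMSO values. The means were 87.1 ± 6.98 and 89.8 ± 3.50 CPM (SD, n = 4 each), giving a log2 fold change of 0.048 (standard error, SE, 0.049, edgeR BH-adjusted p = 0.589). Its 95% interval ran from a decrease to an increase, from -3.54% to 10.8%.

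Rptor, the mTORC1 subunit that binds substrates, lies on chromosome 11 from 119602905 to 119899576 on the plus strand. It was at 56.0, 63.7, 68.6 and 56.8 CPM in DMSO and at 60.2, 63.7, 62.2 and 63.5 CPM in Yoda1. The Yoda1 libraries were close together in the middle of the DMSO range. The log2 fold change was 0.026 (SE 0.054, edgeR BH-adjusted p = 0.820), and its interval was -5.73% to 9.98%. Rictor, the defining subunit of mTORC2, on chromosome 15 from 6708379 to 6800401 (plus strand), was at 107, 106, 109.7 and 115 CPM in DMSO and at 121, 123, 105 and 113 CPM in Yoda1. Yoda1 replicates 1 and 2 lay above every DMSO library and replicate 3 below every one, so the groups overlapped. Rictor differed by a log2 fold change of 0.083 (SE 0.045, edgeR BH-adjusted p = 0.256).

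Mlst8, the small subunit shared by both complexes, was the member with the lowest CPM and the largest fold change. The gene spans 24473551 to 24479078 on the minus strand of chromosome 17. It was at 17.6, 16.8, 19.0 and 19.3 CPM in DMSO and at 19.0, 19.1, 24.1 and 20.1 CPM in Yoda1. Yoda1 replicate 3 stood above the rest, and the groups overlapped around 19 CPM. The means of 18.2 ± 1.17 and 20.6 ± 2.39 CPM (SD, n = 4 each) gave a log2 fold change of 0.18 (SE 0.080, unadjusted p = 0.0318, edgeR BH-adjusted p = 0.152). Without Yoda1 replicate 3 it was 0.10, and the interval with all libraries ran from 1.17% to 26.8%.

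Akt1 and Akt2 encode the kinases that act on the TSC complex. Akt1, on chromosome 12 from 112653821 to 112674884 (minus strand), was at 306, 287, 293 and 297 CPM in DMSO and at 301, 298, 331 and 310.1 CPM in Yoda1. Yoda1 replicates 3 and 4 lay above every DMSO library and the other Yoda1 libraries did not. Akt1 had the smallest SE of the members, with a log2 fold change of 0.067 (SE 0.038, edgeR BH-adjusted p = 0.269, interval -0.660% to 10.5%). Akt2, on chromosome 7 from 27591552 to 27640826 (plus strand), was at 101, 109, 107 and 106 CPM in DMSO and at 107, 101, 107 and 106 CPM in Yoda1. Its groups covered nearly the same range, with a log2 fold change of -0.010 (SE 0.040, edgeR BH-adjusted p = 0.912) and an interval of -6.21% to 5.14%.

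Tsc1, the stabilising subunit of the TSC complex, was the member with the smallest p. The gene spans 28641228 to 28691167 on the plus strand of chromosome 2. It was at 43.6, 42.1, 44.2 and 38.8 CPM in DMSO and at 46.4, 47.4, 45.9 and 46.8 CPM in Yoda1. All 4 Yoda1 libraries lay above all 4 DMSO libraries, and they were closer together. Their SD was 1.33% of the mean, under the 3.79% that counting alone gives, while in DMSO it was 5.77%. Means of 42.2 ± 2.44 and 46.6 ± 0.618 CPM (SD, n = 4 each) gave a log2 fold change of 0.14 (SE 0.052, unadjusted p = 0.00978), an interval of 2.60% to 18.8%. It missed the adjusted threshold (edgeR BH-adjusted p = 0.0734, and from 0.0541 to 0.214 over 16 alternatives). The two-sided exact permutation test gave an unadjusted p = 0.0286, the smallest that 4 against 4 allows. Every gene whose groups do not overlap, 15.5% of all genes, has that value. Tsc2, the subunit that carries the GTPase-activating function, was at 57.8, 57.9, 62.3 and 58.3 CPM in DMSO and at 58.0, 59.7, 54.8 and 56.5 CPM in Yoda1. The groups overlapped, with a log2 fold change of -0.045 (SE 0.047, edgeR BH-adjusted p = 0.604, interval -9.29% to 3.61%). Tsc2 lies on chromosome 17 from 24595816 to 24632630, and Mlst8 lies 117 kb from it on the same strand.

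Rheb, the GTPase that the TSC complex switches off, on chromosome 5 from 24802823 to 24842624 (minus strand), was at 40.8, 40.0, 43.9 and 42.6 CPM in DMSO and at 45.2, 42.2, 42.0 and 42.8 CPM in Yoda1. Yoda1 replicate 1 was the highest library, and the other 3 lay inside the DMSO range. The log2 fold change was 0.042 (SE 0.052, edgeR BH-adjusted p = 0.672). Rps6kb1, which encodes an S6 kinase, on chromosome 11 from 86498871 to 86544805 (minus strand), was at 70.4, 64.7, 67.9 and 67.8 CPM in DMSO and at 77.5, 73.7, 68.8 and 73.0 CPM in Yoda1. The highest DMSO library exceeded the lowest Yoda1 library, and that pair alone kept the groups from separating. Rps6kb1 differed by a log2 fold change of 0.11 (SE 0.046, unadjusted p = 0.0180, edgeR BH-adjusted p = 0.107), and the exact permutation test gave p = 0.0571. Its exons overlap Rnft1 on the opposite strand, which was at 43.1 CPM in DMSO and 47.2 in Yoda1 (log2 fold change 0.13, edgeR BH-adjusted p = 0.0922).

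**Figure D1:**
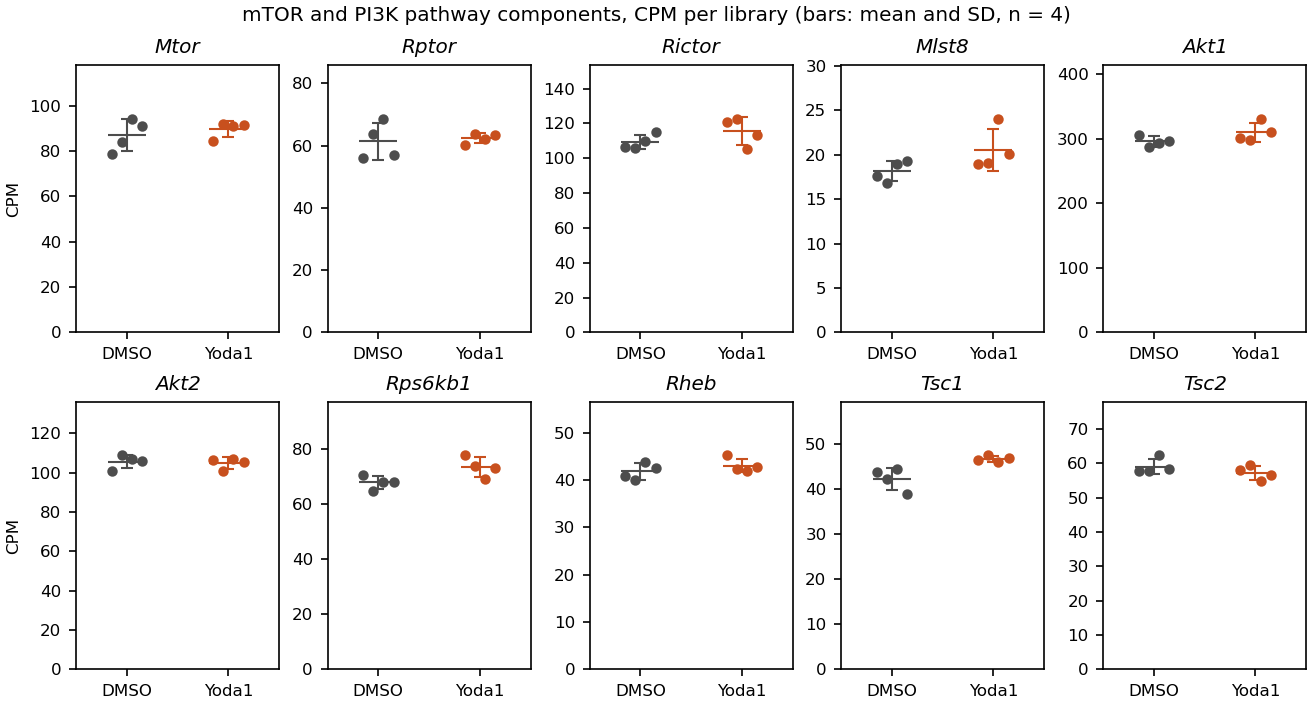
Normalised level (CPM, axes from 0) of each of the 10 components in each library, with the mean and SD of the 4 DMSO (grey) and 4 Yoda1 (orange) libraries. For Tsc1 alone the groups do not overlap, with DMSO at 38.8 to 44.2 and Yoda1 at 45.9 to 47.4 CPM.

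Exons of Mlst8 overlap Bricd5, those of Rptor overlap Rptoros and those of Tsc2 overlap Pkd1, all on the opposite strand. Pkd1 was at 80.6 CPM in DMSO and 85.2 in Yoda1, Bricd5 at 1.41 and 1.07, and Rptoros had 0 to 5 counts per library. The library kit keeps strand, but the sources used here do not give the strand setting of the counting, so reads of such pairs may not have been told apart.

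**Figure D2:**
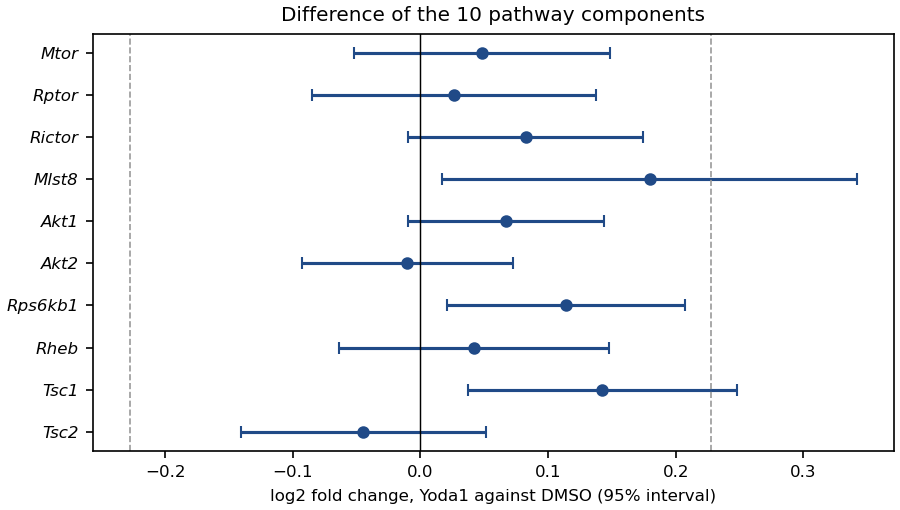
Log2 fold change of each component in Yoda1 against DMSO with its 95% interval (n = 4 per group, edgeR, not adjusted). Dashed lines mark plus and minus 0.23, the median absolute log2 fold change of the 1331 genes past the threshold; only the intervals of Mlst8 and Tsc1 reach it.

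The intervals give the size of difference that these libraries allow. For 9 of the members the upper end was at or under 18.8%, and for Mlst8 it was 26.8%. The lowest lower end was that of Tsc2. Standard errors of the members ran from 0.038 to 0.080, with a median of 0.066 over all genes tested. The smallest absolute log2 fold change among the 1331 genes past the threshold was 0.10, and 402 of those genes had a smaller one than Mlst8. A p that misses the threshold does not show that a transcript was equal in both groups.

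Summed over the 10 members, the level was 871 to 910.5 CPM in DMSO and 919 to 932 CPM in Yoda1, and the groups did not overlap on this scale. As a share of all raw counts, without TMM scaling, it was 0.0873% to 0.0919% in DMSO and 0.0907% to 0.0922% in Yoda1, and the groups overlapped. Akt1 makes up more of this sum than any other member. Groups of single genes did not overlap for 15.5% of all genes, and sums over other sets of genes were not examined. The spread between libraries of one group was close to counting error for Rheb and Tsc2. Rheb had a coefficient of variation of 4.16% in DMSO against 3.89% from counting alone, while Mtor had 8.02% against 2.69% and Rptor 9.78% against 3.21%. In Yoda1 the coefficient of variation was 3.90% for Mtor and 2.56% for Rptor, the latter under its counting error.

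From library to library the members went both ways. Over the 8 libraries, after each group's mean was taken away, the correlation between members was positive in 23 of 45 pairs, with a median of 0.024. It ran from -0.73 for Rictor with Akt1 to 0.79 for Mlst8 with Akt1, and all pairs share the same libraries and scaling. The genes whose log2 CPM followed Mtor most closely over the 8 libraries were Zbtb41 (r = 0.944), Mrps31 (0.937), Pml (0.934), Snx29 (0.934) and Usp42 (0.929), picked from 12239 genes. Their adjusted p in Yoda1 against DMSO ran from 0.538 to 0.989 by edgeR.

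Levels per kb of principal transcript set the members in order in DMSO. Akt1 was highest at 109.9 ± 3.04 CPM per kb, followed by Rheb at 23.5 ± 0.975 and Akt2 at 23.3 ± 0.773. Rps6kb1 (12.2), Rictor (11.7), Mtor (10.2), Tsc2 (9.82) and Rptor (9.29) formed a middle range, and Tsc1 (5.50) and Mlst8 (5.41) were lowest. Over the 8 libraries the ranges of these neighbours overlapped: Rheb and Akt2, Rps6kb1 and Rictor, Mtor and Tsc2, Tsc2 and Rptor, and Tsc1 and Mlst8. The order depends on the length used. With the union of all annotated exons, Rheb moved from rank 2 to 7 at 5.42 CPM per kb, Mtor moved from rank 6 to 3 at 8.61, and Akt1 remained at rank 1.

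**Figure D3:**
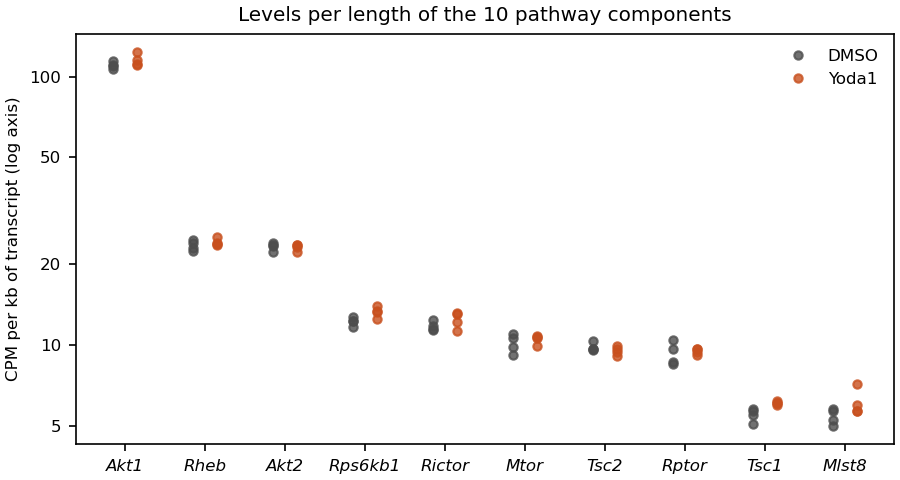
CPM per kb of principal transcript (log axis) of the 10 components in each DMSO (grey) and Yoda1 (orange) library, in order of the DMSO mean. Akt1 lies at 107 to 123 in every library, and the next member, Rheb, at 22.4 to 25.3.

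Ratios of partners within a library were compared for 8 pairs, a measure added after the data had been seen. The Tsc1 to Tsc2 ratio per kb was 0.592, 0.570, 0.557 and 0.522 in DMSO and 0.627, 0.623, 0.657 and 0.649 in Yoda1. Every Yoda1 library lay above every DMSO library, a log2 difference of 0.19 (SE 0.042, two-sided exact permutation test p = 0.0286, adjusted over the 8 pairs p = 0.229). That unadjusted p is the smallest that 4 against 4 allows, so a lone separated pair among 8 could not pass after adjustment. Tsc1 by itself had already separated the groups, so the ratio is not independent support. Groups of single genes did not overlap for 15.5% of all genes. For the other 7 pairs the groups overlapped. The Rptor to Rictor ratio, mTORC1 against mTORC2 subunit, was 0.793 ± 0.088 in DMSO and 0.765 ± 0.059 in Yoda1 (SD, n = 4 each, exact permutation test p = 0.600). Akt1 to Akt2 was 4.73 ± 0.293 and 4.98 ± 0.188 (SD, n = 4 each, exact permutation test p = 0.200).

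The transcripts of the channel and of Il13, whose protein the study measured, are given beside these values. Piezo1 was at 310.5 ± 13.1 CPM in DMSO and 323 ± 17.6 in Yoda1 (SD, n = 4 each, log2 fold change 0.056, edgeR BH-adjusted p = 0.407). Il13, which encodes the type 2 cytokine IL-13, had a log2 fold change of 0.30 (edgeR BH-adjusted p = 3.61e-07).

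Around the 10 members, 134 further genes of the route were held in 12 lists, of which 127 were tested. Of these, 26 passed the threshold, or 20.5% against 10.9% of all genes, and 10 rose and 16 fell (6 and 20 with upper-quartile factors, under which all genes split into 505 higher and 958 lower in place of 739 and 592). The groups did not overlap for 31 of the 127, or 24.4% against 15.5% of all genes. The lists were chosen with earlier results of these data known, so both shares describe the lists and test nothing. The median log2 fold change of the 127 was -0.021. Without Yoda1 replicate 1 the number that passed was 17. Of the 26 calls, 16 held in all 16 alternatives, and those lost in some of them are named as such below.

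PI3K subunits held 5 calls among 13 tested genes, 1 higher and 4 lower, with a median of -0.18. That is 38.5% against 10.9% of all genes tested. Pik3cd, the leukocyte catalytic subunit and the one with the highest CPM, was at 327, 321, 326 and 315 CPM in DMSO and at 274, 274, 268 and 276 CPM in Yoda1. The groups were far apart relative to their spread, and Pik3cd fell by 0.24 on the log2 scale (SE 0.034, edgeR BH-adjusted p = 9.19e-06). Pik3ca, a broadly expressed catalytic subunit, went the other way. It was at 173, 185, 177 and 181 CPM in DMSO and at 203, 203, 192 and 199 CPM in Yoda1, a log2 fold change of 0.15 (SE 0.036, edgeR BH-adjusted p = 0.00531) with no overlap. Pik3cg (-0.059) and Pik3cb (-0.080) did not pass, with edgeR BH-adjusted p of 0.415 and 0.716.

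Among the regulatory subunits, Pik3r1, which holds the class IA catalytic subunits, fell from 229 ± 14.4 to 199 ± 12.4 CPM (SD, n = 4 each, log2 fold change -0.20, edgeR BH-adjusted p = 0.00664), although its groups overlapped. Pik3r5 and Pik3r6, the regulatory partners of Pik3cg, lie next to each other on chromosome 11 on the plus strand, 5.17 kb apart. Pik3r5 was at 44.9, 46.9, 47.2 and 48.9 CPM in DMSO and at 42.1, 39.9, 36.6 and 37.9 CPM in Yoda1, a log2 fold change of -0.26 (SE 0.053, edgeR BH-adjusted p = 0.00112). Pik3r6 was at 7.82, 8.21, 9.40 and 8.50 CPM in DMSO and at 6.14, 6.70, 5.10 and 5.97 CPM in Yoda1, a log2 fold change of -0.50 (SE 0.112, edgeR BH-adjusted p = 0.00336). Neither gene had overlapping groups, and Pik3r6 rests on 68 to 150 counts per library.

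**Figure D4:**
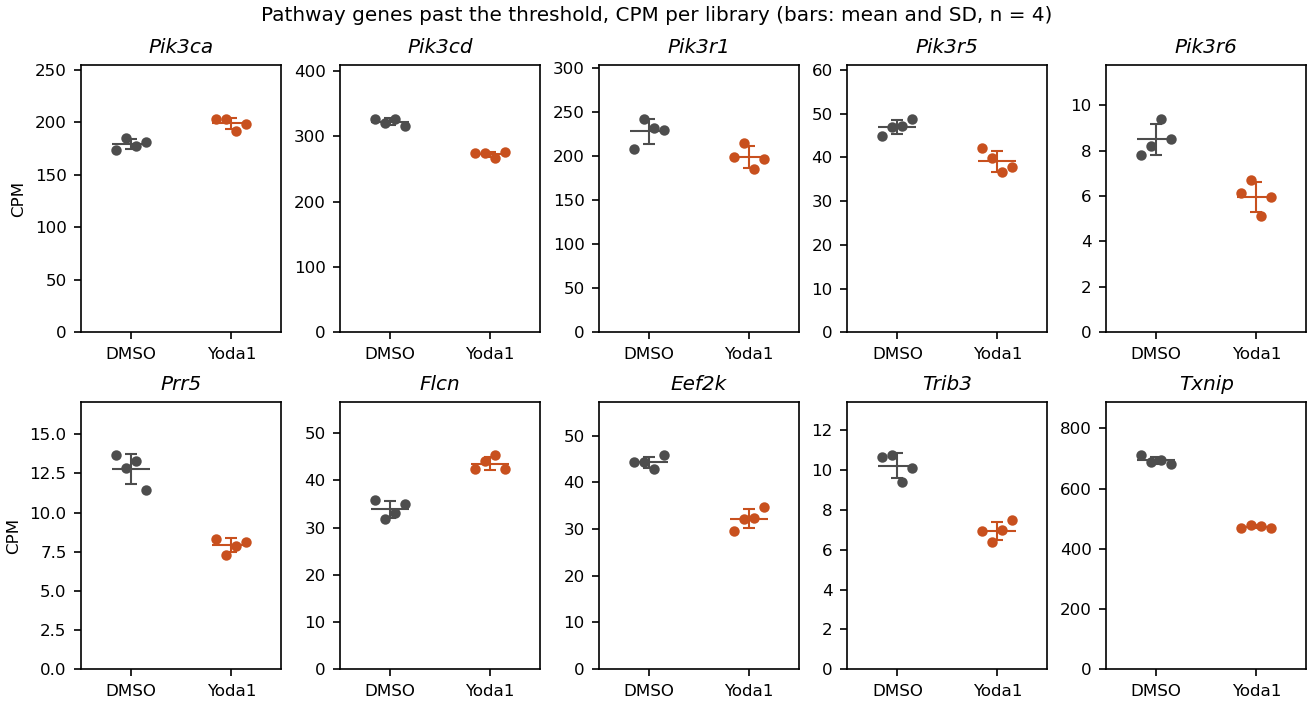
Normalised level (CPM, axes from 0) of 10 pathway genes past the threshold, picked with their values known, in each library, with the mean and SD of the 4 DMSO (grey) and 4 Yoda1 (orange) libraries. Pik3ca and Flcn rose and the other 8 fell, and only Pik3r1 has overlapping groups.

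Upstream of PI3K, 1 of 7 tested receptor-side genes passed, or 14.3% against 10.9% of all genes tested. It was the adaptor Pik3ap1 (log2 fold change 0.20, edgeR BH-adjusted p = 0.0496). Its call was lost in 11 of 16 alternatives. The gene with the highest CPM there, the insulin receptor substrate Irs2, was at 228 and 243 CPM (edgeR BH-adjusted p = 0.637). Of 10 genes that oppose PI3K or AKT, 2 fell and 0 rose, or 20% against 10.9% of all genes tested. Trib3, a pseudokinase that binds AKT, fell from 10.2 ± 0.612 to 6.95 ± 0.456 CPM (SD, n = 4 each, log2 fold change -0.55, edgeR BH-adjusted p = 0.000329). Pik3ip1, a membrane inhibitor of PI3K, had a log2 fold change of -0.23 (edgeR BH-adjusted p = 0.0335), lost in 8 alternatives. The lipid phosphatase Inpp5d (0.027, and -0.0035 with upper-quartile factors) did not pass.

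Of 4 tested AKT-related kinases, 0 passed by edgeR, DESeq2 or limma-voom, against 10.9% of all genes tested by edgeR. An unadjusted p under 0.05 was seen for 2, against 25.3% of all genes tested. Sgk1, an mTORC2 substrate, came nearest at 4.94 and 6.49 CPM with groups that did not overlap (log2 fold change 0.37, edgeR BH-adjusted p = 0.0537). Among AKT substrates outside mTORC1, 1 of 7 passed, or 14.3% against 10.9% of all genes tested. It was the p53 ligase Mdm2 (log2 fold change 0.17, edgeR BH-adjusted p = 0.00191). Of 11 genes known as targets of FOXO factors, which AKT inhibits, 3 rose and 2 fell, or 45.5% against 10.9% of all genes. Klf2, a quiescence factor, rose from 7.76, 8.43, 7.29 and 6.50 CPM in DMSO to 12.4, 12.7, 11.4 and 11.6 CPM in Yoda1 (log2 fold change 0.67, edgeR BH-adjusted p = 1.89e-05). Bcl2l11, a death-promoting BCL2 relative, rose by 0.46 and Ccng2, a cyclin linked to arrest, by 0.19 on the log2 scale. Txnip, which binds thioredoxin and limits glucose uptake, fell from 694 ± 12.1 to 473 ± 5.90 CPM (SD, n = 4 each, log2 fold change -0.55, edgeR BH-adjusted p = 3.22e-13). The lymphocyte egress receptor S1pr1 had a log2 fold change of -0.19, lost in 5 alternatives. The list thus went both ways, with a median of 0.074 over its 11 genes.

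Other mTOR complex subunits held 2 calls among 8, both lower, or 25% against 10.9% of all genes tested. Prr5, a subunit of mTORC2 that binds Rictor, was at 13.6, 12.8, 13.3 and 11.5 CPM in DMSO and at 8.32, 7.31, 7.87 and 8.13 CPM in Yoda1. With no overlap between the groups, it fell by 0.70 on the log2 scale (SE 0.094, edgeR BH-adjusted p = 4.56e-06), the largest decrease among the 127 genes. Rictor itself, with which it assembles, had a log2 fold change of 0.083 and did not pass. Telo2, which helps fold mTOR and related kinases, had a log2 fold change of -0.25 (edgeR BH-adjusted p = 0.0353), lost in 9 alternatives. The mTORC2 subunit Mapkap1, at 50.2 and 48.8 CPM, did not pass (edgeR BH-adjusted p = 0.659). Of the 3 partners of TSC and Rheb (Tbc1d7, Rhebl1 and Fkbp1a), 0 passed by edgeR, DESeq2 or limma-voom. In that list 0 had an unadjusted p under 0.05, against 25.3% of all genes tested.

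The lysosomal branch senses amino acids. Among 13 Rag GTPase and Ragulator genes, 3 rose and 0 fell, or 23.1% against 10.9% of all genes tested. Flcn, the folliculin subunit that activates RagC and RagD, was at 35.8, 31.8, 33.2 and 35.0 CPM in DMSO and at 42.4, 44.2, 45.3 and 42.4 CPM in Yoda1. The groups did not overlap, and the log2 fold change was 0.36 (SE 0.055, edgeR BH-adjusted p = 2.57e-05). Rraga (0.18) and Lamtor3 (0.19) passed as well and lost their calls in 7 and 8 alternatives. Rragc, with the highest CPM of this list, did not pass (0.087, edgeR BH-adjusted p = 0.180). Of 17 GATOR and sensor genes, 1 rose, the GATOR2 subunit Wdr59 (0.14, lost in 3 alternatives), and 3 fell. These calls were 23.5% of the list, against 10.9% of all genes tested. The arginine sensor Castor1, listed as Gatsl3, fell by 0.26 on the log2 scale (edgeR BH-adjusted p = 0.000587). Kptn (-0.29) and Castor2, listed as Gatsl2 (-0.24), passed with adjusted p of 0.0429 and 0.0464 by edgeR and lost their calls in 10 alternatives each. Sesn3, the leucine-sensor relative with the highest CPM, did not pass (0.051, edgeR BH-adjusted p = 0.557).

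Of 14 tested AMPK and stress genes, 1 passed, or 7.14% against 10.9% of all genes tested. It was Prkag1, a nucleotide-binding AMPK subunit (log2 fold change -0.21, edgeR BH-adjusted p = 0.00252). The stress-induced mTORC1 inhibitor Ddit4 was at 270.0 ± 7.06 and 264 ± 24.2 CPM (SD, n = 4 each, edgeR BH-adjusted p = 0.735). Among 20 effectors of mTORC1, 2 fell and 0 rose, or 10% against 10.9% of all genes tested. Eef2k, the kinase that inhibits elongation factor Eef2 and that S6 kinase inhibits, was at 44.3, 44.4, 42.8 and 45.7 CPM in DMSO and at 29.6, 32.1, 32.3 and 34.6 CPM in Yoda1. It fell by 0.45 on the log2 scale with no overlap (SE 0.056, edgeR BH-adjusted p = 9.11e-07), while Eef2 itself, at 5889 and 6064 CPM, did not pass (edgeR BH-adjusted p = 0.473). Eif4ebp1, the translation repressor that mTORC1 phosphorylates, had a log2 fold change of -0.24 (edgeR BH-adjusted p = 0.0403), lost in 6 alternatives. Rps6, the ribosomal protein that S6 kinase phosphorylates, was at 1621 ± 74.6 and 1702 ± 58.3 CPM (SD, n = 4 each, log2 fold change 0.071, edgeR BH-adjusted p = 0.234).

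**Figure D5:**
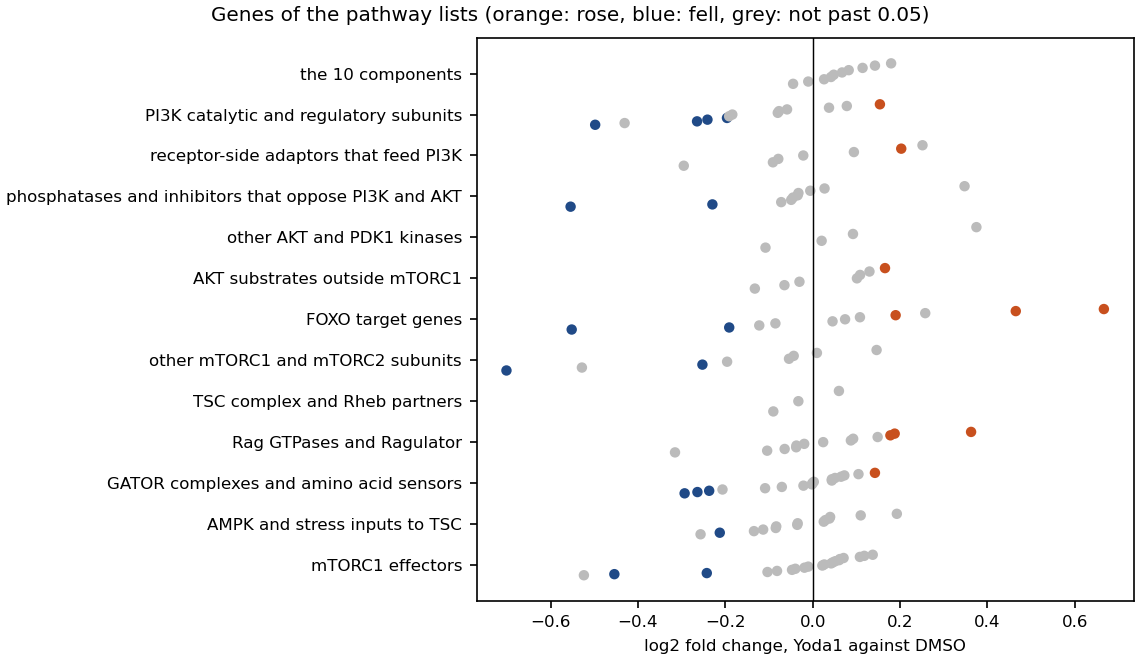
Log2 fold change in Yoda1 against DMSO of the 10 components (top row) and of the 127 tested genes of the 12 lists around them, each point a gene. Orange genes rose, blue genes fell and grey genes did not pass an edgeR BH-adjusted p of 0.05. The 10 components are all grey, between -0.045 and 0.18.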

How the data were processed

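The authors deposited, for each library, whole-number raw read counts per gene symbol without normalization. Reads went through FastQC, FASTX Trimmer, BBMap and Cufflinks by the study's methods, and the submitters' processing notes list TopHat and mm10. Versions, annotation and strand setting are not given in the sources used here. From the counts, genes were filtered with filterByExpr (minimum count 10, minimum total 15), scaled with TMM and compared with edgeR 4.0.16 in R 4.3.3 by the quasi-likelihood test, robust, with Benjamini-Hochberg adjustment at 0.05 over 12239 genes, in place of the study's Cuffdiff. The standard error is the absolute log2 fold change divided by the root of F. Every pair of libraries within a group differed by more than counting noise, with a chi-square per gene from 2.03 to 6.94. Alternatives were DESeq2 1.42.0, limma-voom (limma 3.58.1), other scalings and filters, the replicate block and each library left out. The edgeR, DESeq2 and limma-voom comparisons of the groups were first tested on simulated data. The permutation tests and the replicate block were not. All simulated differences were larger than that of any member, so recovery of differences as small as theirs was not tested. Exon-union lengths, partner ratios and the share of raw counts were added after the data had been seen. Intervals cover only what differed between these libraries. Symbols were matched to GENCODE M21 and, for 3 genes, through RefSeq synonyms. The members and lists were chosen with earlier results of these data known. Genes named are all members, the 25 list genes with the smallest p past the threshold, the gene with the highest CPM of each list, Piezo1, Il13, Rps6, Eif4ebp1 and the 5 genes most like Mtor. Pik3ap1, Pik3cb, Pik3cg and the other genes named beside them were named after their values were seen.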

Additional observations from a re-analysis of the deposited data

Results flagged for a closer look

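A single library lay far from the rest in 6 of 96 groups of 4 libraries (48 genes in both treatments), where chance gives about 4.8. Among the members, Mtor was low in Yoda1 replicate 1, at 84.6 CPM with the next library at 91.2, and without that library its log2 fold change was 0.074 against 0.048 with it (0.0034 to 0.089 with each of the 8 libraries left out in turn). Tsc2 was high in DMSO replicate 3, at 62.3 CPM with the next at 58.3. Among the other pathway genes, Bcl2l11 was high in Yoda1 replicate 2 (13.3 CPM, the next 11.6), Lamtor3 was high in DMSO replicate 1 (41.2, the next 36.3), Telo2 was high in Yoda1 replicate 3 (18.4, the next 15.2) and Sesn3 was low in DMSO replicate 1 (108 CPM, the next 122). No cause of these single libraries was tested.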

How the results depend on the processing

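The count of members past the threshold was 0 under all 16 alternatives, and 1 to 4 members had an unadjusted p under 0.05, against 25.3% of all genes with all libraries. The number of other pathway genes past it ran from 17 to 28, and from 17 to 24 with 1 library left out, and the number over all genes from 893 to 1491. No pairing by replicate number was visible: after group means were taken away, same-numbered libraries correlated at 0.048, 0.071, -0.028 and 0.00023. Such correlations cannot show whether the libraries were paired by mouse or culture. With the replicate block, 0 members, 22 pathway genes and 966 genes passed. Upper-quartile factors put Rptor at -0.0048, Inpp5d at -0.0035 and Pdpk1 at -0.0100, and library size only put Pdpk1 at -0.0010. With 1 library left out, log2 fold changes ran from -0.016 to 0.083 for Rptor, -0.033 to 0.0099 for Akt2, -0.010 to 0.065 for Pdpk1 and -0.081 to 0.023 for Ddit4. They ran from 0.0034 (without DMSO replicate 1) to 0.089 (without DMSO replicate 3) for Mtor, 0.036 to 0.086 for Akt1, 0.020 to 0.066 for Rheb and -0.066 to -0.018 for Tsc2. None of these passed the threshold. Among genes past the threshold or near it, depth limits Pik3r6, Prr5, Trib3, Klf2, Bcl2l11, Kptn and Sgk1 more than the members, with 68 to 234 counts per library.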
